A study of Mus musculus with 12 samples.

Results

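Growth restraint in macrophages was followed here through 10 genes that hold back the cell cycle or, in the case of *Myc*, drive cell growth. They were the BTG and TOB genes *Btg1*, *Btg2*, *Tob1* and *Tob2*, the GADD45 genes *Gadd45a*, *Gadd45b* and *Gadd45g*, the cyclin-dependent kinase (CDK) inhibitors *Cdkn1a*, which encodes p21, and *Cdkn1b*, which encodes p27, and *Myc*. They were chosen by symbol, with earlier results of these data known. GENCODE M21 gave the Ensembl identifiers, and all 10 were found among the 53379 genes of the count table. All 10 also passed the filter on low counts, which left 12386 genes to test.

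RNA was sequenced from bone marrow-derived macrophages (BMDMs) of 4 male C57Bl/6J mice without any engineered allele. Bone marrow cells had been grown for 1 week with L929 cell conditioned medium, which supplies the macrophage growth factor CSF-1, and this medium stayed on the cells of all groups. Each mouse gave an untreated culture, a culture given the B2AR-specific agonist fenoterol at 1 μM for 1 h and a culture given it for 4 h, so that 3 groups of 4 libraries shared the same 4 mice. B2AR is the beta2-adrenergic receptor, which signals through cAMP. The design asks how transcription in BMDMs had changed shortly and later after B2AR was switched on. These were cultures grown from whole bone marrow, not sorted cells.

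BTG and TOB proteins bring the CCR4-NOT deadenylase to mRNAs, whose poly(A) tails it shortens, and slow the growth of many cells. GADD45 proteins are small stress-response proteins that bind PCNA, p21 and the kinase MAP3K4, which activates the p38 and JNK kinases. p21 and p27 bind cyclin-CDK complexes and can stop cells in G1, whereas MYC, with its partner MAX, drives ribosome production and entry into S phase. Many of these genes are immediate early genes, whose mRNAs are made within an hour of a signal and decay fast. BMDMs divide in response to CSF-1, and agents that raise cAMP are known to slow this growth.

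A route from cAMP to a gene is the cAMP response element (CRE), TGACGTCA, to which CREB binds, or the shorter form TGACG. RefSeq promoters on GRCm38.p6 of 300 bases, from 250 before the start of transcription to 50 after it, were found for 9 of the 10 genes, 1 each except for *Cdkn1a* with 2. The promoters of the 4 genes that held TGACG on either strand are shown so that the letters can be seen beside the values, with TGACG or its reverse complement CGTCA in capitals. A link between these letters and the responses was not tested. Each sequence runs 5′ to 3′ on the strand of the gene.
Btg2 promoter: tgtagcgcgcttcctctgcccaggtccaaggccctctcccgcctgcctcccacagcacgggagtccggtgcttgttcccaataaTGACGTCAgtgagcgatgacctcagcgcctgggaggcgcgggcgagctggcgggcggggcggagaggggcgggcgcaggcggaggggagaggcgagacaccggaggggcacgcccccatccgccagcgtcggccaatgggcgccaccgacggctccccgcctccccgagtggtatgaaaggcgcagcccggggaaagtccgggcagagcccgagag
Btg1 promoter: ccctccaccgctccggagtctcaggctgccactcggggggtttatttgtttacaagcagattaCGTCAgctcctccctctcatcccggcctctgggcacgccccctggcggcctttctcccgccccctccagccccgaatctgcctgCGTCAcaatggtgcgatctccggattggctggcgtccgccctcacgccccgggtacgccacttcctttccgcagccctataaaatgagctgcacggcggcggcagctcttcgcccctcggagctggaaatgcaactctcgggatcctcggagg
Tob1 promoter: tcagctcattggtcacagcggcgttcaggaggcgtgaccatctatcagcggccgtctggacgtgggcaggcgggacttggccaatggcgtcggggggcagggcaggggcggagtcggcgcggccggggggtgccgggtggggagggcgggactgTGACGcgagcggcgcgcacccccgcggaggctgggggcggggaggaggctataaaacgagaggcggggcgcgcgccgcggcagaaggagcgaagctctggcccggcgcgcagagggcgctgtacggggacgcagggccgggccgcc
Cdkn1b promoter: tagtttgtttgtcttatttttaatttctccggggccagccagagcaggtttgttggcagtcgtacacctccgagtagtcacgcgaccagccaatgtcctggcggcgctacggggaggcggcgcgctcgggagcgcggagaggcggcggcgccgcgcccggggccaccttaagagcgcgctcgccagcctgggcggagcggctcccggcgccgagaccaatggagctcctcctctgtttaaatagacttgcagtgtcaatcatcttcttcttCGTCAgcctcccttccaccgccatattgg
The *Btg2* promoter (chr1:134079106-134079405, minus strand) held the full palindrome TGACGTCA from position -166, counted from the start of transcription, and it overlaps with both its copies of the short form. It was the only 1 of the 10 promoters with the full element, which 1.79% of 32851 RefSeq promoters of the same length hold. The short form lay at -187 and -103 in *Btg1* (chr10:96616751-96617050, plus strand), at -96 in *Tob1* (chr11:94211204-94211503, plus strand) and at position 22 after the start in *Cdkn1b* (chr6:134920151-134920450, plus strand), and 20.81% of all promoters hold it. None was found in these windows of *Tob2*, *Gadd45a*, *Gadd45b*, *Gadd45g* or *Cdkn1a*. The E-box CACGTG, which MYC and MAX bind and 7.15% of all promoters hold, occurred in *Gadd45b* at -185 and in *Gadd45g* at -142. The letters TATAAA on the gene strand, held by 8.32% of promoters, occurred in *Btg1* at -26, *Tob1* at -47, *Gadd45b* at -46 and *Gadd45g* at -27. A match of letters was not tested as a binding site.

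The libraries held 14580533 to 24153284 counts on genes. Libraries of a group differed by more than counting error, and none looked like a copy of another. Markers of macrophages summed to 31910 to 39831 CPM (counts scaled to a common library total) in every library, and those of neutrophil precursors, T cells, B cells, dendritic cells, stromal cells and erythroid cells to at most 61.9 CPM per list. *Cd8a*, *Hba-a1* and *Hbb-bs* had 0 counts in all 12 libraries, and 0 of the 11 tested markers of other cell types changed at either time by edgeR's quasi-likelihood test (0 at an unadjusted p under 0.05, 0 by DESeq2, and 1 at 4 h by limma-voom). Of the 7 macrophage markers, 1 was lower at 1 h, and 2 were higher and 4 lower at 4 h, *Mertk* among them. As the RNA was from bulk cultures, fewer cells of a type and less RNA per cell cannot be told apart.

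At 1 h of fenoterol all 10 genes had changed, 9 of them upward. *Btg2* rose 8.44-fold, *Cdkn1a* 4.31-fold, *Tob1* 3.79-fold and *Btg1* 3.48-fold. *Gadd45a* went the other way and fell to 0.206 of its untreated level. The change passed an adjusted p of 0.05 by edgeR's quasi-likelihood test in 10 of 10 genes, against 20.1% of all genes tested (10.0% higher and 10.1% lower). At least a 2-fold change was found for 7 of them, against 3.92% of all genes. The 4 untreated and the 4 treated libraries did not overlap for any of the 10 genes, and in all genes the groups were separate for 23.0%. The median log2 fold change of the 10 genes was 1.17, and that of all genes tested was -0.005. In the plot of the 10 genes against all genes, *Btg2* lay above 99.5% of the genes and *Gadd45a* above 0.0807% of them.

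**Figure D1:**
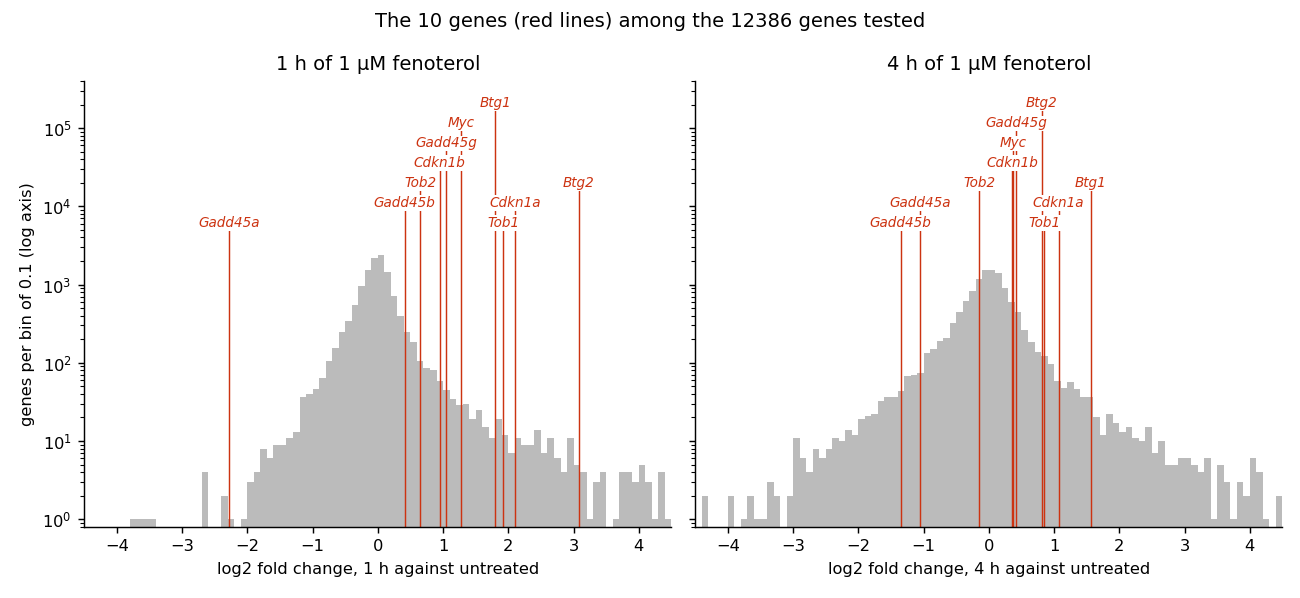
Histograms of the log2 fold changes of all 12386 genes tested (x axis, bins of 0.1; y axis, genes per bin, log scale) at 1 h and at 4 h against untreated BMDMs, with red lines at the 10 genes. At 1 h, 9 of the lines lie to the right of 0 and *Gadd45a* lies at -2.28; at 4 h, 7 lie to the right of 0, and 25 and 32 genes fall outside the axis at 1 h and 4 h.

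By 4 h the set had come apart. Of the 10 genes, 5 were still higher than in untreated BMDMs (*Btg1*, *Cdkn1a*, *Tob1*, *Btg2* and *Cdkn1b*), 2 were lower (*Gadd45a* and *Gadd45b*), and 3 did not pass the test (*Tob2*, *Gadd45g* and *Myc*). The 7 genes that passed stand against 40.0% of all genes at this time, 19.7% higher and 20.4% lower, and the 4 that differed at least 2-fold against 8.10%. With the mouse as a block 9 passed, *Tob2* and *Myc* in addition, beside 47.4% of all genes in that fit. The groups did not overlap for 7 of the 10 genes, compared with 37.6% of all genes. The median log2 fold change of the 10 genes was 0.395, against 0.004 for all genes. Both comparisons used the same untreated libraries, and no untreated group was matched to each time. Fenoterol and time or handling in culture can therefore not be told apart.

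Between 1 h and 4 h, 9 of the 10 genes fell and *Gadd45a* rose. All 10 passed the test of this difference, compared with 38.5% of all genes (18.7% higher and 19.8% lower), and 5 differed at least 2-fold, compared with 6.34%. The libraries of the time points overlapped for *Btg1* and *Gadd45g* and were separate for the other 8, compared with 35.9% of all genes. When libraries were scaled by their totals alone, 32.5% of all genes called at 1 h were higher, compared with 49.8% after TMM scaling, and 65.7% of those called between the time points, compared with 48.6%. The 10 genes kept their direction under that scaling at all times, but the falls of *Btg1* and *Gadd45g* between 1 h and 4 h, -0.15 and -0.54 on the log2 scale, did not pass the test there (adjusted p of 0.144 and 0.0607).

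**Figure D2:**
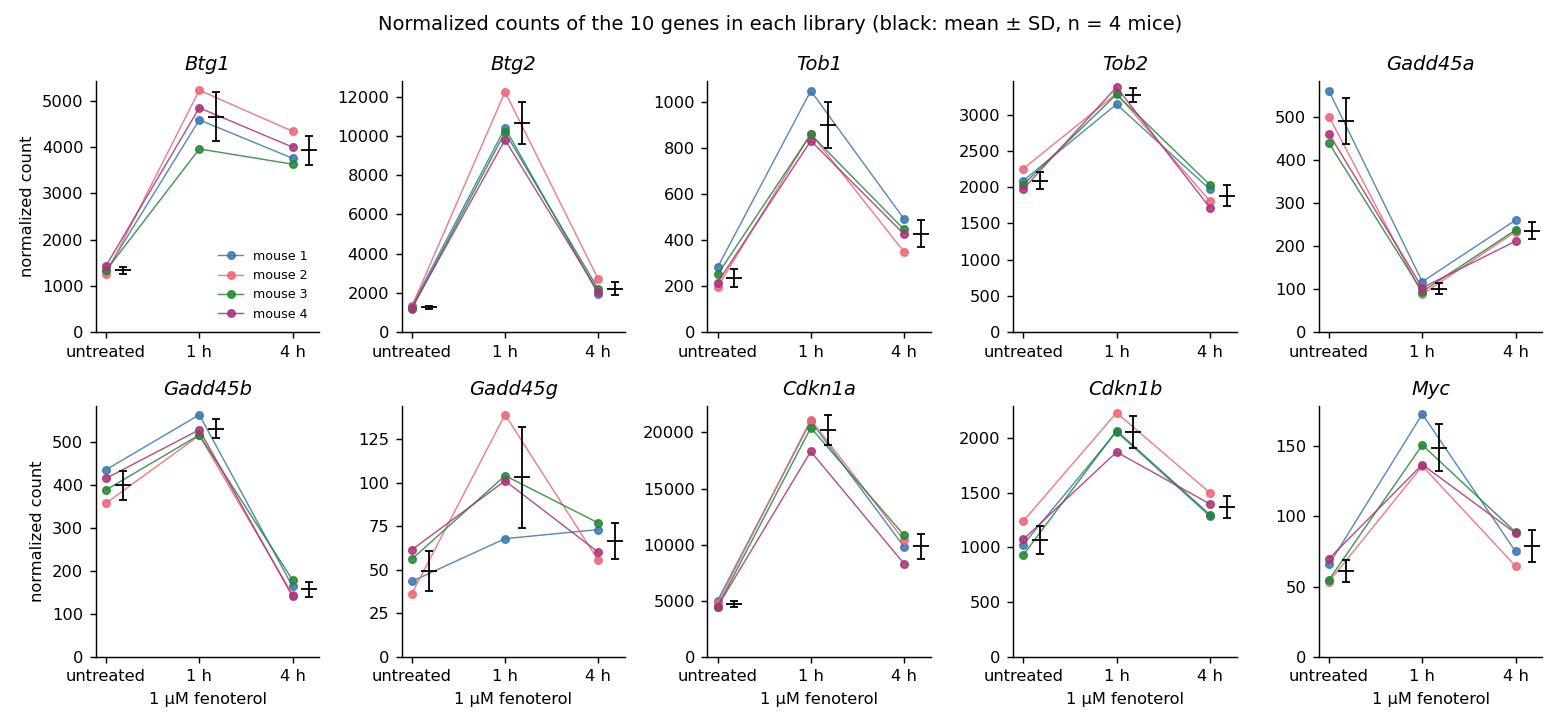
Normalized counts (y axis, linear, from 0) of the 10 genes in the 12 libraries, with 1 coloured line per mouse and the group mean ± SD in black (n = 4 mice). Lines of 9 genes climb from untreated to 1 h in every mouse, and the *Gadd45a* lines drop from between 438 and 559 to between 87.9 and 117.

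*Btg2* (chr1:134075170-134079120, minus strand, a position on GRCm38 from GENCODE M21, as for all genes named here with one), an immediate early gene and a p53 target, made the largest move of the set. Of the 9 genes with a RefSeq promoter, it was the 1 whose promoter held the full CRE, and a link to this move was not tested. Normalized counts, which are counts scaled by TMM to the mean library, were 1323, 1306, 1190 and 1232 without fenoterol (mice 1 to 4, the order used throughout). At 1 h they were 10412, 12242, 10184 and 9802, and at 4 h 1940.0, 2698, 2192 and 2045. Every 1 h library was above every 4 h library, and every 4 h library above every untreated one. The log2 fold change was 3.08 ± 0.10 (SE) at 1 h (adjusted p = 2.09e-11) and 0.81 ± 0.10 at 4 h (adjusted p = 9.35e-06). Of the rise at 1 h, 10.0% ± 2.54 (SD, n = 4 mice) was left at 4 h.

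*Btg1* (chr10:96617006-96622809, plus strand), the closest relative of *Btg2*, rose less and stayed up. Untreated BMDMs held 1319, 1255, 1333 and 1436 normalized counts. The libraries at 1 h held 4587, 5227, 3958 and 4847, and those at 4 h 3757, 4340, 3630 and 3998. The treated groups overlapped with each other and lay far above the untreated one. Fold changes on the log2 scale were 1.80 ± 0.08 at 1 h (adjusted p = 6.74e-10) and 1.56 ± 0.08 at 4 h (adjusted p = 2.33e-09), and 78.7% ± 6.01 of the rise was left at 4 h. The fall of 0.24 on the log2 scale between the time points had an adjusted p of 0.0273. That call was lost without the 1 h library of mouse 2 (adjusted p = 0.0947) or 4 (0.0665) and without the 4 h library of mouse 1 (0.0705) or 3 (0.0834).

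*Tob1* and *Tob2* differ from the BTG proteins by a long C-terminal part that binds poly(A)-binding protein. *Tob1* had 282, 196, 251 and 216 normalized counts without fenoterol, 1050.5, 864, 861 and 833 at 1 h, and 493, 350, 447 and 427 at 4 h. The 3 groups of *Tob1* did not overlap. Its log2 fold change was 1.92 ± 0.12 at 1 h (adjusted p = 2.7e-08) and 0.85 ± 0.13 at 4 h (adjusted p = 7.26e-05), with 29.2% ± 4.94 of the rise left. *Tob2* (chr15:81848272-81858796, minus strand) began at a higher count, with 2091, 2255, 2037 and 1975, and reached only 3145, 3295, 3281 and 3382 at 1 h. The spread at 1 h was small, and the rise of 0.65 ± 0.06 on the log2 scale was far larger than it (adjusted p = 1.69e-06). At 4 h *Tob2* was at 1972, 1810, 2035 and 1719, which overlapped with the untreated libraries, and the log2 difference of -0.15 (95% interval -0.28 to -0.02) had an adjusted p of 0.0674. With the mouse as a block this difference passed (adjusted p = 0.0453), and it also passed without the untreated library of mouse 4 (0.0458) or the 4 h library of mouse 3 (0.0329).

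Per length of exon, the family sum and its makeup shifted. The summed level of the 4 genes was 57.6 ± 1.54 (SD, n = 4) CPM per kb of exon without fenoterol, 288 ± 23.6 at 1 h and 103 ± 7.11 at 4 h. *Btg2* made up 40.7% ± 1.08 of that level without fenoterol and 68.7% ± 1.77 at 1 h. At 4 h its share was back at 39.8% ± 3.21, while that of *Btg1* had gone from 22.4% ± 1.62 in untreated BMDMs to 36.8% ± 1.76. *Tob2* went from 27.7% ± 1.42 to 8.74% ± 0.756 and 14% ± 1.58, and *Tob1* stayed between 7.0% and 9.36%. *Btg1* and *Btg2* together thus carried most of the family's level in every group, also without fenoterol. By the length of its longest transcript, *Tob2* was the highest of the 4 without fenoterol, at 25.6 against 23.4 for *Btg2*.

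**Figure D3:**
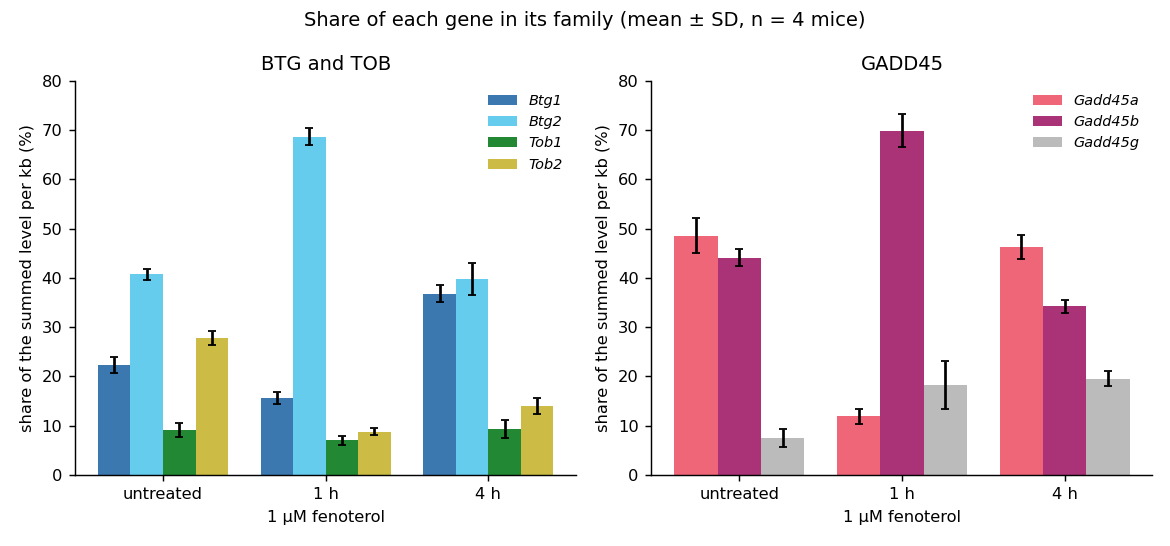
Share of each gene (y axis, percent) in the summed level per kb of exon of its family, BTG and TOB on the left and GADD45 on the right, in the 3 groups (bars, mean ± SD, n = 4 mice). *Btg2* takes 68.7% of its family at 1 h, and *Gadd45a* drops from 48.6% to 11.9% of its own.

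The GADD45 genes did not move together. *Gadd45a* (chr6:67035096-67037457, minus strand), which p53 and other stress signals induce, had 559, 500, 438 and 460 normalized counts in untreated BMDMs. It dropped to 117, 87.9, 94.2 and 103 at 1 h and had come back in part to 260, 233, 237 and 211 at 4 h. The groups were separate, in the order untreated, 4 h, 1 h. The log2 fold change was -2.28 ± 0.12 at 1 h (adjusted p = 1.51e-09) and -1.06 ± 0.11 at 4 h (adjusted p = 1.68e-06), and 65.2% ± 4.87 of the fall was left at 4 h. The gene E230016M11Rik lies on the other strand over 19.1% of the exon bases of *Gadd45a* and was given 311 counts in all libraries, against 3287 for *Gadd45a*. As the strand option of the counting is not given in the sources used here, reads of the overlap cannot be told apart.

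*Gadd45b* (chr10:80930073-80932204, plus strand), an early target of NF-κB and TGF-β signals, rose slightly and then fell below its starting level. It went from 436, 358, 389 and 416 normalized counts to 564, 516, 517 and 529 at 1 h, a log2 fold change of 0.41 ± 0.09 (adjusted p = 0.00345). At 4 h it was at 164, 145, 179 and 141, lower than in any untreated library, with a log2 fold change of -1.35 ± 0.09 (adjusted p = 2.8e-08). This gene was thus called in opposite directions at the 2 times, and the fall between them was 1.76 on the log2 scale (adjusted p = 3.13e-09).

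*Gadd45g* (chr13:51846678-51848468, plus strand), the least abundant of the family per kb of exon in untreated BMDMs and at 4 h but not at 1 h, when *Gadd45a* was lower, was counted only 27 to 123 times per library. Its normalized counts varied most of the 3 genes in each group, relative to the mean. Its normalized counts were 43.3, 36.2, 56.0 and 61.4 without fenoterol, 67.8, 139, 104 and 101 at 1 h, and 73.0, 55.3, 76.8 and 60.0 at 4 h. It rose at 1 h by 1.05 ± 0.22 on the log2 scale (adjusted p = 0.00343), with mouse 1 the lowest. At 4 h the difference from untreated BMDMs was 0.42 with a 95% interval of -0.06 to 0.91 (adjusted p = 0.161), which is too wide to tell no change from a rise. The fall of 0.63 from 1 h to 4 h (adjusted p = 0.0327) was lost without the 1 h library of mouse 2 (log2 difference -0.45, adjusted p = 0.12), 3 (0.0575) or 4 (0.0541) and without the 4 h library of mouse 2 (0.0861) or 4 (0.0781).

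Summed per kb of exon, the GADD45 level was 29.1 ± 2.13 CPM without fenoterol, 24.4 ± 0.53 at 1 h and 14.7 ± 1.41 at 4 h. *Gadd45a* gave 48.6% ± 3.49 of it without fenoterol, 11.9% ± 1.56 at 1 h and 46.3% ± 2.43 at 4 h. *Gadd45b* gave 44.1% ± 1.74, 69.9% ± 3.34 and 34.2% ± 1.28 in turn. The 1 h total was therefore mostly *Gadd45b*, although that gene had risen only 1.33-fold.

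*Cdkn1a* was the most abundant of the 10 genes per length in every group and rose strongly. Normalized counts of 5013, 4775, 4477 and 4483 became 21004, 21145, 20417 and 18303 at 1 h and 9809, 10386, 10846 and 8302 at 4 h. No library of a group overlapped with another group. The log2 fold change was 2.11 ± 0.08 at 1 h (adjusted p = 8.41e-11) and 1.07 ± 0.08 at 4 h (adjusted p = 6.6e-08), with 33.0% ± 5.41 of the rise left. Of the 50-base stretches of its exons, 8.49% also occur in other genes, so that part of its reads could have been counted elsewhere or dropped.

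*Cdkn1b* (chr6:134920401-134925513, plus strand), which is controlled largely through translation and protein stability, moved less. It had 1027, 1241, 932 and 1074 normalized counts without fenoterol, 2059, 2232, 2069 and 1873 at 1 h, and 1288, 1501, 1301 and 1399 at 4 h. The rise was 0.95 ± 0.08 at 1 h (adjusted p = 8.8e-07) and 0.36 ± 0.08 at 4 h (adjusted p = 0.00288) on the log2 scale. Mouse 2 was highest in each group. Of the rise at 1 h, 31.2% ± 7.09 was left, which is within the spread of the value for *Cdkn1a*.

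*Myc* was the least abundant of the 10 genes per length, with 40 to 168 counts per library. Normalized counts were 65.8, 53.6, 55.0 and 70.0 without fenoterol, 173, 136, 151 and 137 at 1 h, and 75.1, 64.7, 88.9 and 88.1 at 4 h. *Myc* thus rose at 1 h along with the growth inhibitors, by 1.28 ± 0.15 on the log2 scale (adjusted p = 1.37e-05). At 4 h it was 0.37 above untreated BMDMs (95% interval 0.05 to 0.70), which did not pass the test (adjusted p = 0.0627). It passed with the mouse as a block (log2 fold change 0.38, adjusted p = 0.0429) and without the 4 h library of mouse 2 (0.46, adjusted p = 0.0284).

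**Figure D4:**
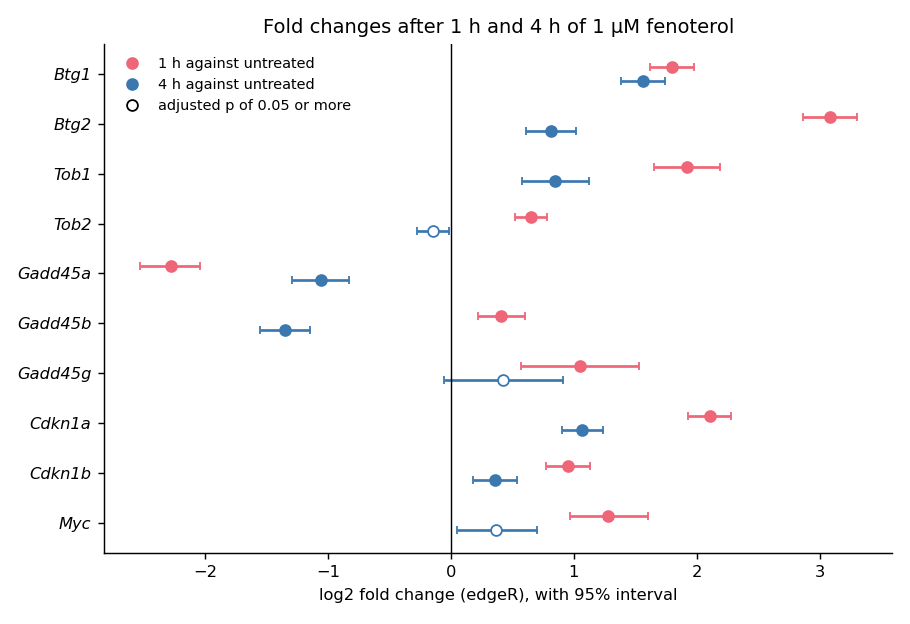
Log2 fold changes from edgeR (x axis) of the 10 genes at 1 h (red) and 4 h (blue) against untreated BMDMs. The 95% intervals are from 1 fit over all 12 libraries, 4 per group. Open circles did not pass an adjusted p of 0.05. *Btg1* keeps nearly the same value at both times (1.80 and 1.56), and *Gadd45b* moves from 0.41 to -1.35.

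Ordered by level (CPM per kb of exon), untreated BMDMs had *Cdkn1a* first at 67.2 ± 3.70 (SD, n = 4), *Btg2* at 23.4 ± 1.16 and *Tob2* at 16.0 ± 0.916. *Tob2*, *Gadd45a*, *Btg1*, *Gadd45b* and *Cdkn1b* followed each other with overlapping ranges, between 16.0 and 12.0. *Tob1* at 5.26 ± 0.850, *Gadd45g* at 2.14 ± 0.500 and *Myc* at 1.15 ± 0.151 were below and separate. At 1 h the order was led by *Cdkn1a* at 289.9 ± 18.8, *Btg2* at 198 ± 20.1 and *Btg1* at 44.9 ± 5.15, and *Gadd45a* had come down to 2.90 ± 0.366, which overlapped with *Myc* at 2.80 ± 0.317. At 4 h *Cdkn1a* stood at 141 ± 15.9, and *Btg2* at 41.2 ± 6.23 and *Btg1* at 38 ± 3.02 overlapped. With the length of the longest transcript in place of all exons, *Cdkn1a* was at 115 in untreated BMDMs and *Tob2* at 25.6, above *Btg2*, since part of their exons belongs to other transcripts.

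Beyond the 10 genes, 7 lists of genes that act with them were tested. Their counts are to be read against the share of all genes that passed, 20.1% at 1 h and 40.0% at 4 h, or, where the mouse is a block, 27.0% and 47.4%. With libraries scaled by their totals alone, 7.66% of all genes were higher and 15.9% lower at 1 h, and 21.5% and 18.8% at 4 h. Of 15 genes of CCR4-NOT and other deadenylation factors, the machinery that BTG and TOB proteins recruit, 1 was higher and 4 lower at 1 h, and 3 were higher and 1 lower at 4 h. The 5 calls at 1 h became 3, all lower, without the untreated library of mouse 2 or the 1 h library of mouse 1, 2 or 3, and the 4 calls at 4 h became 2, both higher, without the untreated library of mouse 4. Scaled by library totals alone, 0 were higher and 5 lower at 1 h and 3 higher and 0 lower at 4 h. The list medians were -0.04 and 0.03 on the log2 scale. *Cnot3*, a subunit of the complex, fell by 0.43 at 1 h (adjusted p = 0.000296), and *Cnot6*, a deadenylase, was 0.49 higher at 4 h (adjusted p = 1.25e-05). *Tnks1bp1* and *Cnot11*, also subunits of the complex, fell by 0.32 and 0.26 at 1 h. *Btg3* and *Btg4*, the remaining BTG genes, had at most 1 count in any library and were not tested.

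Of 9 tested kinases of the MAP3K4, p38 and JNK route that GADD45 proteins feed, 3 were higher at each time and the other 6 did not pass the test. They were *Map2k3*, which activates p38 (0.89 at 1 h and 1.09 at 4 h on the log2 scale), *Map2k4*, which activates p38 and JNK (0.28 and 0.86), and *Mapk9*, a JNK (0.19 and 0.32). With the mouse as a block 4 passed at each time, 3 higher and 1 lower at 1 h and 4 higher at 4 h, beside 27.0% and 47.4% of all genes in that fit. Scaled by library totals alone, 2 were higher and 2 lower at 1 h. The list medians were -0.04 and 0.24.

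Of 5 other CDK inhibitors, 0 changed at 1 h by edgeR's test (1 at an unadjusted p under 0.05, and 0 by DESeq2, limma-voom or limma-trend), and *Cdkn2d*, which inhibits CDK4 and CDK6, was higher at 4 h by 0.74 (adjusted p = 0.000214). Its 1 h difference of 0.31 (adjusted p = 0.107) passed with the mouse as a block (adjusted p = 0.0125). Of 9 cyclins and CDKs of G1 and S phase, 3 were higher at 1 h and the other 6 did not pass, and at 4 h 1 was higher and 3 were lower (3 and 3 with the mouse as a block). Scaled by library totals alone, 1 was higher and 1 lower at 1 h. *Cdk6*, a kinase of G1, went from 1731 normalized counts to 2258 at 1 h and 437 at 4 h, which is 0.253 of the untreated level (log2 fold change -1.98, adjusted p = 6.15e-09). *Ccnd1*, cyclin D1, was 0.85 higher at 1 h (adjusted p = 0.0136) and 0.75 lower at 4 h on the log2 scale, and *Cdk4* fell by 0.52 at 4 h. *Ccnd3* was higher by 0.24 and 0.33. The 1 h call of *Cdk6* (0.38, adjusted p = 0.0219) was lost without the untreated library of mouse 1 (0.0691) or 2 (0.0642) or the 1 h library of mouse 1 (0.0678) or 3 (0.0627).

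Within the network of MAX and MLX, the partners and rivals of MYC, 2 of 9 tested genes were higher and 2 lower at 1 h, and 2 were higher and 6 lower at 4 h. *Mxi1*, which competes with MYC for MAX, rose 4.46-fold at 1 h and 3.91-fold at 4 h, from 1027 normalized counts to 4574 and 4013. *Mxd1*, of the same group, rose by 1.42 on the log2 scale at 1 h and was 0.32 lower than untreated at 4 h (adjusted p = 0.00916). *Mxd4* and *Mnt*, also repressors that bind MAX, fell by 1.00 and 0.73 at 4 h. The list median was -0.04 at 1 h and -0.24 at 4 h.

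Of 24 MYC target genes of ribosome production and growth, 4 were higher and 1 lower at 1 h, and 4 were higher and 7 lower at 4 h, with medians of -0.01 and -0.15. These counts, 5 and 11 of 24, are near the shares of all genes that passed (20.1% and 40.0%), and with the mouse as a block they were 6 and 14, beside 27.0% and 47.4% of all genes. Scaled by library totals alone, 4 were higher and 4 lower at 1 h and 5 higher and 4 lower at 4 h, and without the untreated library of mouse 1 the 11 calls at 4 h became 7. *Odc1*, the first enzyme of polyamine synthesis, was 3.96 higher at 1 h (adjusted p = 0.00149) and 4.18 higher at 4 h on the log2 scale. In mouse 4 all 3 libraries had far less of it than the other mice: 64.6, 254 and 344 normalized counts, against 125 to 174, 2492 to 2714 and 2829 to 3402 in mice 1 to 3. With limma-voom the 1 h rise did not pass (adjusted p = 0.0985), and without the 1 h library of mouse 4 it was 4.33 (adjusted p = 0.000105). *Bop1*, of 60S ribosome assembly, rose by 0.60 and 0.98, whereas *Gnl3* and *Npm1*, nucleolar proteins, fell by 0.91 and 0.47 at 4 h.

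Of 18 tested p53 target genes other than the 10 genes, 2 were higher and 2 lower at 1 h, and 2 were higher and 7 lower at 4 h, with medians of -0.05 and -0.08. The 4 and 9 genes that passed are near the 20.1% and 40.0% of all genes. With the mouse as a block 7 passed at 1 h and 12 at 4 h, beside 27.0% and 47.4% of all genes in that fit. Without the untreated library of mouse 1, 5 in place of 9 passed at 4 h. *Sesn1* fell to 0.337 of its untreated level at 1 h and to 0.187 at 4 h, from 9322 normalized counts to 3144 and 1741, and *Sesn2*, its relative, was 0.53 and 0.64 higher on the log2 scale. *Bbc3*, which encodes PUMA, fell by 0.52 and 0.96. *Plk2* was 0.61 higher at 1 h and 0.70 lower at 4 h.

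**Figure D5:**
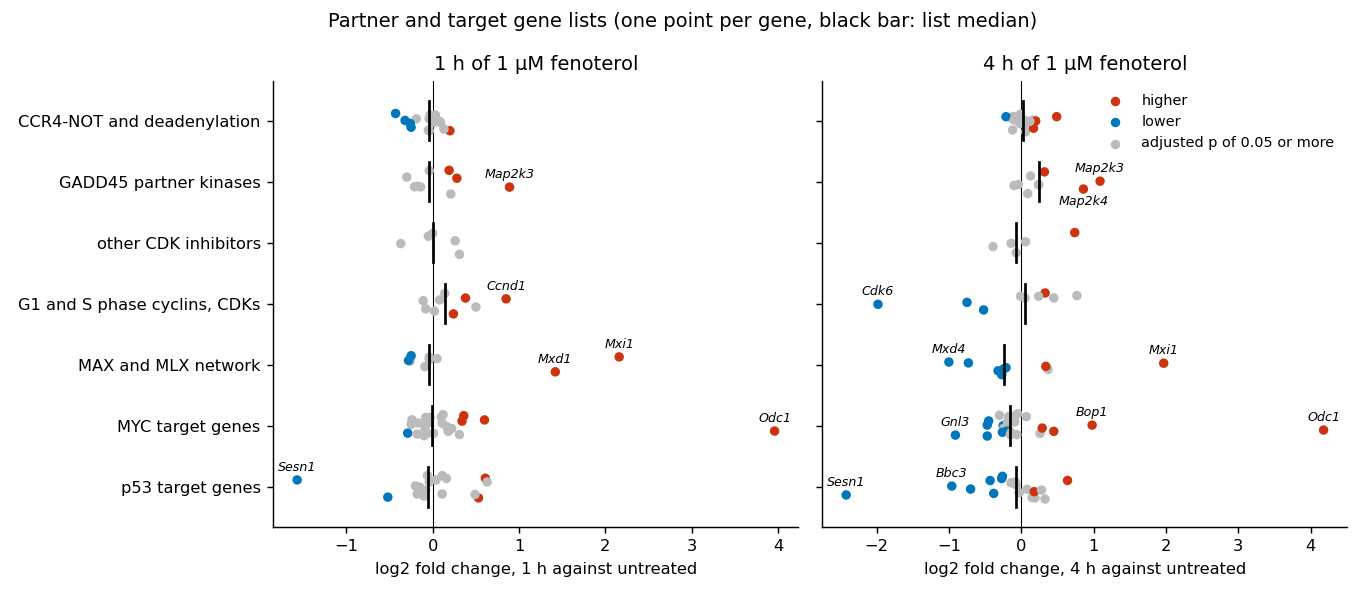
Log2 fold changes (x axis) of the tested genes of 7 partner and target lists (rows) at 1 h and 4 h against untreated BMDMs, 1 point per gene, red where higher and blue where lower at an adjusted p of 0.05 and grey otherwise, with a black bar at the list median. The medians lie between -0.24 and 0.24, and *Mxi1*, *Odc1*, *Cdk6* and *Sesn1* lie far from them.

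The 1 h calls of *Cnot6*, *Tnks1bp1*, *Mapk9* and *Mxd4* were lost when single libraries were left out, with adjusted p of up to 0.0818, 0.0802, 0.109 and 0.0695. The lists were made with earlier results of these data known, so their counts describe these genes only.

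The genes whose profile over the 12 libraries was most like that of each of the 10 genes were searched among 10289 genes, by Pearson's r of log2 CPM. The 12 points share mice and treatments, so r is a description. *Btg2* was most like *Per1*, a clock gene (r = 0.995), and *Zfp667* and *Zcchc14* came next. *Cdkn1a* was closest to *Atmin* (0.996), *Nfil3* and *Pim1*, *Tob1* to *Ubl3* (0.991), *Tnfaip6* and *Ppp1r3b*, and *Tob2* to *Elmsan1* (0.976), *Mettl13* and *Irs2*. *Btg1* was closest to *Smim3* (0.994), *Adora2b* and *Mxi1*. *Gadd45a* was closest to *Dusp7*, a phosphatase that acts on ERK (0.982), *Map3k8* and *Gas2l3*, and *Gadd45b* to *Tmem135* (0.990), *Tmem164* and *Dgkd*. For *Cdkn1b* they were *Slc16a6* (0.979), *Nup98* and *Nfkbie*, for *Myc* *Cklf* (0.972), *Hsp90aa1* and *Thbd*, and for *Gadd45g* *F8a* (0.903), *Mcrip2* and *Slc52a2*.

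On the genome, the nearest protein-coding gene on each side was read for each of the 10 genes, and *Pvt1* beside *Myc*. Of these 21 neighbours 14 were tested, 6 were higher and 2 lower at 1 h, and 5 were higher and 3 lower at 4 h, against 20.1% and 40.0% of all genes called at these times. *Apold1* is among the 6 and had at most 11 counts per library outside the 1 h group, so it entered the test through its 1 h counts. *Rab44*, 13418 bases to the right of *Cdkn1a* (chr17:29090976-29100727, plus strand), had 20.8, 26.8, 20.3 and 30.2 normalized counts in untreated BMDMs. It had 107, 141, 111 and 83.1 at 1 h and 1348, 2033, 1701 and 889 at 4 h, so it went on rising while *Cdkn1a* fell (log2 fold changes of 2.18 and 5.94, adjusted p = 0.000199 and 7.18e-10). *Srsf3*, a splicing factor 47603 bases to the left of *Cdkn1a*, was higher by 0.75 and 0.41. *Apold1*, 56205 bases to the right of *Cdkn1b*, had 1, 3, 6 and 1 counts without fenoterol, 843, 368, 343 and 453 at 1 h, and 6, 7, 11 and 7 at 4 h, and no fold is given against counts so low. *Spag9*, a JNK scaffold 85369 bases to the left of *Tob1* (chr11:94211454-94215495, plus strand), rose by 0.27 and 1.42 on the log2 scale. *Pvt1*, a noncoding RNA 47612 bases from *Myc* (chr15:61985391-61990374, plus strand), differed by 0.04 at 1 h (95% interval -0.56 to 0.63) when *Myc* had risen 2.44-fold.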

How the data were processed

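RNA was measured in BMDMs of 4 mice, untreated or after 1 h or 4 h of 1 μM fenoterol. Before depositing the counts, the authors made stranded mRNA libraries, sequenced single-end reads of 50 bases, mapped them to GRCm38 with TopHat2 2.0.11 and counted reads per gene with HTSeq 0.8.0 (versions from the submitters' processing notes). The deposited values are raw counts, 53379 genes by 12 libraries, and 29819 genes have no count. The annotation release and strand option are not given in the sources used here. Symbols and coordinates were taken from GENCODE M21, which matched 53274 genes.

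Counts were tested with edgeR 4.0.16 (R 4.3.3): filterByExpr on the 3 groups, TMM scaling, the quasi-likelihood test in 1 fit over all libraries without covariates, and Benjamini-Hochberg adjustment over 12386 genes per contrast, with a threshold of 0.05. The SE of a fold change is from this fit. The study named vsn and limma. limma-trend stood in for vsn among the alternatives, which were also DESeq2 1.42.0, limma-voom (limma 3.58.1), RLE or library size scaling, no filter, a minimum mean count of 50, fits without the group not compared, a block for the mouse, a threshold of 0.01, the longest transcript as gene length, and leaving out each library. The scripts were tested on simulated counts. Python 3.11.15 and matplotlib 3.10.9 were used for summaries and figures.

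Per the labels, a number stands for 1 mouse in all groups. For libraries of 1 mouse, deviations from the group means had Pearson's r of 0.290 to 0.561 (12 pairs), against -0.304 to 0.0912 for different mice (36 pairs), over the genes tested.

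Levels per length are TMM-scaled CPM per kb of all exons. All 10 genes are named, and of each partner list up to 4 genes with the largest called change that all 4 mice shared in sign, the 3 genes most alike in profile and the nearest coding genes. The 10 genes and all lists were chosen with earlier results of these data known. For a precise value, counts matter: with 27 to 168 counts per library, *Gadd45g* and *Myc* are measured with few counts, as is *Gadd45a* at 1 h (78 to 114).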

Additional observations from a re-analysis of the deposited data

Results flagged for a closer look

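The *Tob1* count of mouse 1 at 1 h, 1050.5 normalized counts, stood apart from the other 3 libraries of its group: its gap to the nearest of them was 0.858 of the group's range, which is past the limit of Dixon's test at the 95% level for 4 values. It was 1 of 30 groups tested, and chance would flag about 1.5. Without that library all 10 genes were still called at 1 h.

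The 1 h and 4 h groups differed for all 10 genes by edgeR's test, which compares 4 h with 1 h. As no untreated group was matched to each time, time in culture and time with fenoterol cannot be told apart here. On the log2 scale (4 h minus 1 h) the differences were -2.26 for *Btg2*, -1.76 for *Gadd45b*, -1.07 for *Tob1*, -1.04 for *Cdkn1a*, -0.91 for *Myc*, -0.80 for *Tob2*, -0.63 for *Gadd45g*, -0.58 for *Cdkn1b* and -0.24 for *Btg1*, and 1.22 for *Gadd45a*. Adjusted p-values ran from 5.3e-10 for *Btg2* to 0.0327 for *Gadd45g*.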

How the results depend on the processing

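Over 660 values of the 10 genes under alternatives, 642 kept their direction and their side of the threshold, 13 lost a call, 5 gained one and 0 changed direction. At 1 h all 10 genes were called under every alternative. At 4 h the count of 7 became 9 with the mouse as a block, which added *Tob2* and *Myc*, while the calls over all genes went from 4958 to 5870 (40.0% to 47.4%); the block moved no other call of the 10 genes. Leaving out 1 library in turn gave 10 calls at 1 h, 7 to 8 at 4 h and 8 to 10 between the time points, and over all genes 2100 to 2482, 4463 to 4976 and 4209 to 4735. Without a filter on low counts, 7 in place of 11 MYC target genes passed at 4 h. At a threshold of 0.01, 1580 genes in place of 2493 were called at 1 h, by construction. Of 2306 values of other named genes, 2217 kept their direction and call, 68 lost a call, 15 gained one, and 6 values of 4 genes that had not passed the test changed sign when 1 library was left out. Over the libraries left out, *Npm1* at 1 h ran from -0.0766 to 0.0223 and *Cnot3* at 4 h from -0.00674 to 0.0811, both reversed without the untreated library of mouse 3. *Lmnb2* at 1 h ran from -0.17 to 0.11 and reversed without that library (0.0148) or the 1 h library of mouse 2. *Odc1* between the time points ran from -0.15 to 0.59 and reversed without the 1 h library of mouse 4 or the 4 h library of mouse 3 (-0.00418). The cause was not tested.

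*Gadd45g* and *Myc* had the fewest counts and wide 4 h intervals, and how much of that width comes from depth was not tested. Levels per length depend on which transcripts are counted, and with the longest transcript *Cdkn1a* was at 495 at 1 h in place of 289.9. The times sampled do not show when each gene peaked, and 4 mice per group bound all statements.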
